A study of Mus musculus with 8 samples.

Results

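Desmosome genes were examined in ovarian tumours of mice that lacked or carried Nedd9. The 10 genes were Dsg2, Dsc2, Jup, Pkp1, Pkp2, Pkp3, Dsp, Ppl, Evpl and Perp, chosen by gene name, and all of their array probes were read: 12 of 39429 probes, spotted 21 times. All 10 genes passed the filter on dim probes and were among the 25535 genes tested.

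The tumours arose spontaneously in untreated female C57BL/6J mice that all carried the TgMISIIR-TAg transgene, in which the promoter of the Müllerian inhibiting substance type II receptor drives the SV40 T antigen in the female reproductive tract. Nedd9-null mice (n = 4) had a null genotype for Nedd9, which encodes a scaffold protein of integrin and SRC signalling, and Nedd9-WT mice (n = 4) were wild type for it. The ages of the mice and the exons missing from the null allele were not given in the sources used here. The RNA of each tumour was read on 1 Agilent array in 1 colour, so the number of arrays limits the precision. The arrays of the 2 genotypes sat on different slides, so in every difference below slide and genotype cannot be told apart. Over all genes, 1 library stood apart from its group. Nedd9-null replicate 1 correlated at 0.886 to 0.920 with the other 3 Nedd9-null arrays and at 0.938 to 0.973 with the Nedd9-WT arrays. Results for the desmosome genes are therefore given with and without it. That tumour was picked out from these same arrays, so p values of fits without it can be too small.

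A desmosome is a button-like junction that ties the intermediate filaments of neighbouring epithelial or heart muscle cells together. Desmogleins (Dsg) and desmocollins (Dsc), both cadherins, bridge the gap between the cells, armadillo proteins (plakoglobin, from Jup, and the plakophilins) bind their tails inside the cell, and desmoplakin (Dsp) links that plaque to keratin or other filaments. Envoplakin (Evpl) and periplakin (Ppl) are related plakins of the cornified envelope that also locate to desmosomes, and PERP is a tetraspan membrane protein, a target of p53 and of p63, that desmosomes of stratified epithelia need.

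The desmosome genes did not move together. In the 3 Nedd9-null tumours numbered 2 to 4, Perp, Ppl and Evpl lay above all 4 Nedd9-WT tumours, and Dsc2 and Jup lay below them. Such separation of these 3 tumours from Nedd9-WT held for 5 of the 10 desmosome genes and for 34.4% of all genes tested, 16.4% higher and 18.1% lower. Nedd9-null replicate 1 was on the other side or inside the Nedd9-WT range for 4 of these 5 genes, and in the comparison of all 8 tumours 0 of the 10 genes passed the test. The plakophilin genes Pkp1, Pkp2 and Pkp3, the desmoglein gene Dsg2 and the desmoplakin gene Dsp overlapped between the genotypes with or without that tumour.

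**Figure D1:**
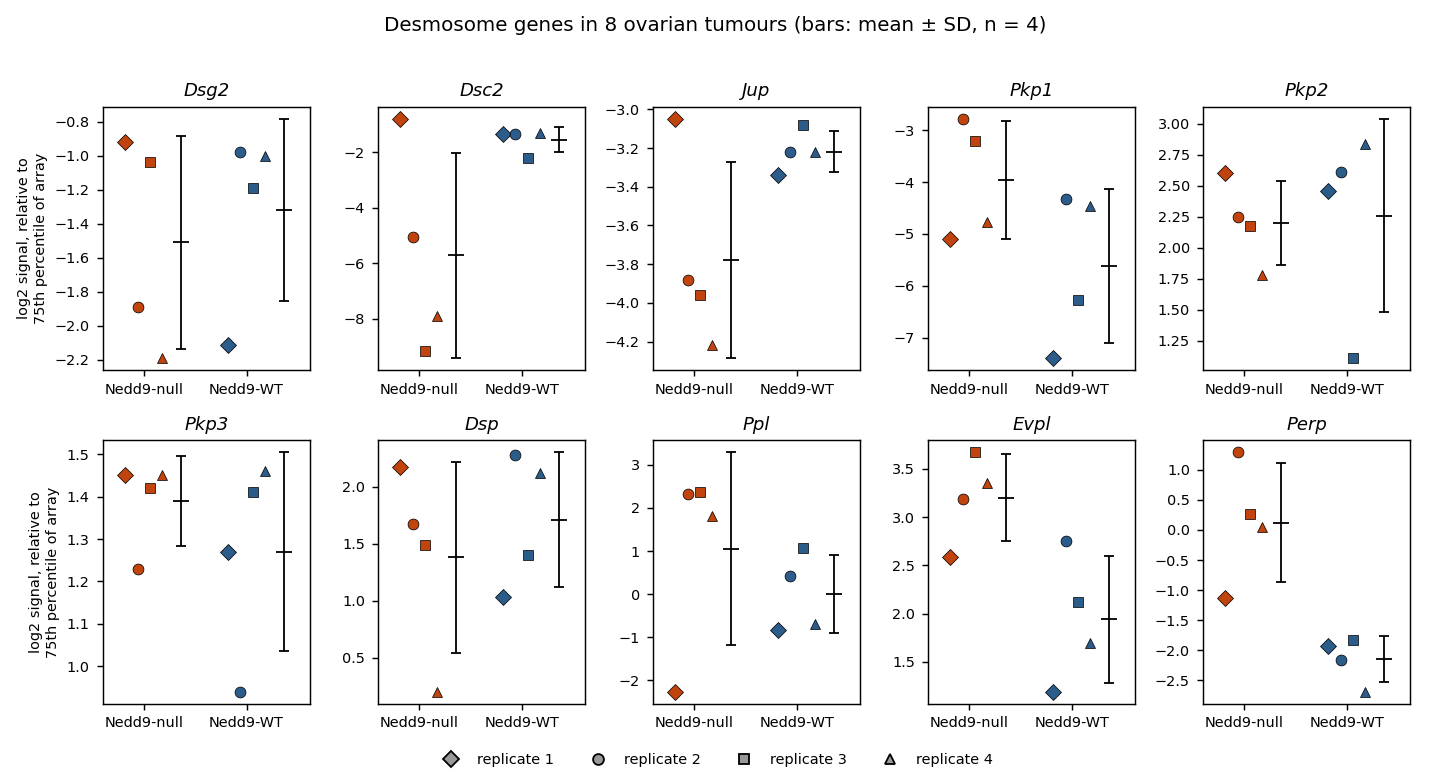
Level of each desmosome gene (y axis, log2 signal relative to the 75th percentile of the array; each panel has its own range) in the 4 Nedd9-null tumours (left in each panel) and the 4 Nedd9-WT tumours (right). Points are tumours with 1 symbol per replicate number, and bars are mean ± SD (n = 4). For Perp the genotypes do not overlap, and for Dsc2, Jup and Ppl the diamond of Nedd9-null replicate 1 lies apart from the other 3 Nedd9-null tumours.

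Probe sequences are shown first, from the deposited files with their mm9 coordinates, because an array value is the signal of 1 such probe. The Dsp gene is read by a probe spotted 10 times (chr13:38290121-38290180, plus strand) and by another listed over a genomic span of 1100 bases for 60 bases of probe (chr13:38285480-38286579, plus strand), so its target is interrupted in the genome. The second Dsp probe and the Jup probe (chr11:100238038-100238097, minus strand) are given whole, and the first 30 bases are given for the genes that were higher in Nedd9-null replicates 2 to 4, which are Perp (chr10:18576697-18576756, plus strand), Evpl (chr11:116081921-116081980, minus strand) and Ppl (chr16:5086384-5086428, minus strand). The Ppl coordinates cover 45 of the 60 probe bases.
Dsp, second probe: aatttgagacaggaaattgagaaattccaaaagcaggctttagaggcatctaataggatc
Jup: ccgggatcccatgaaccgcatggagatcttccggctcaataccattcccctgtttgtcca
Perp: gaaaatttgggaatgcgtgtctctgaatac
Evpl: tgtccacctcactgcgcaatcgtttgtggt
Ppl: ttctgacttggatcaaaactatcaacagtg

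The Pkp3 probe (chr7:148276140-148276199, plus strand) is shown from base 19 to base 48 because it holds a repeat, a CT dinucleotide run of 21 bases, in capitals; 76 of 39429 probes (0.193%) hold a dinucleotide run at least as long.
Pkp3: aggacCTCTCTCTCTCTCTCTCTCTCctct
What such a repeat adds to the signal of this probe was not tested. The exon or UTR in which each probe lies was not assigned here.

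The targeted transcript was low in the tumours labelled null. Nedd9 averaged -3.23 ± 0.86 in Nedd9-null tumours, against 1.28 ± 0.42 in Nedd9-WT tumours (log2 signal less the 75th percentile of the same array, mean ± SD, n = 4 each, the scale of all levels below). It was 22.9-fold lower in Nedd9-null tumours (difference -4.51, standard error (SE) 0.44, limma adjusted p = 0.0281). A two-sided exact permutation test gave p = 0.0286, the lowest value possible with 70 arrangements of the arrays. The limma call was lost in 7 of 20 alternatives, among them the replicate block (adjusted p = 0.217) and 6 of the 8 fits with 1 array left out (adjusted p 0.0876 to 0.123); the direction held in all 20. Nedd9-null replicate 1 had the highest Nedd9 level of the 4, -2.01, which was below all Nedd9-WT tumours (0.84 to 1.85). Between 73.0% and 84.6% of probes were well above background per array. The tumours are bulk tissue, in which fewer cells of a type and less RNA per cell cannot be told apart.

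Of 25535 genes, 17 (0.0666%) passed a limma adjusted p of 0.05, and 0 of the 10 desmosome genes did. At an unadjusted p under 0.05 the limma fit held 3 of the 10 (Dsc2, Evpl and Perp), against 23.9% of all genes. The median difference, Nedd9-null minus Nedd9-WT, was 0.03 over the desmosome genes (5 positive, 5 negative) and 0.03 over all genes. The median size of the difference, regardless of sign, was 0.81 for the desmosome genes and 0.37 for all genes. The median SE was also larger for the desmosome genes, 0.43 against 0.29. With Nedd9-null replicate 1 left out, 5 of the 10 passed an adjusted p of 0.05, against 18.7% of all genes. These were Evpl, Perp and Ppl, higher in the remaining Nedd9-null tumours (10.3% of all genes), and Dsc2 and Jup, lower in them (8.36% of all genes). In that fit Dsp differed by -0.59 (limma adjusted p = 0.43) and Dsg2 by -0.38 (limma adjusted p = 0.552). Pkp2 differed by -0.19 (limma adjusted p = 0.809) and Pkp3 by 0.10 (limma adjusted p = 0.761). The same 5 genes passed when limma weighted the arrays by their fit, with 23.4% of all genes. That weighting gave Nedd9-null replicate 1 the lowest weight and was drawn from the same data, so it is not separate support.

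**Figure D2:**
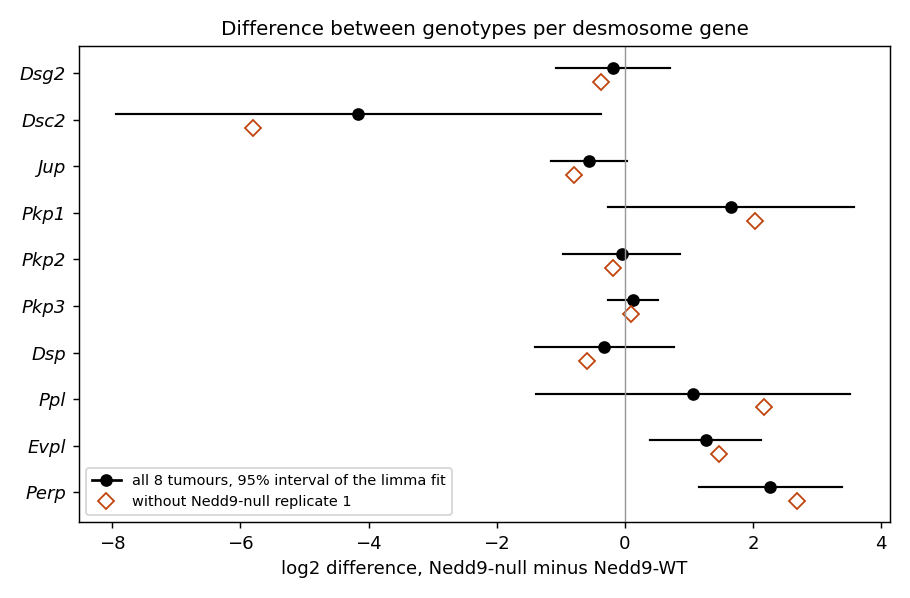
Difference between the genotypes for each desmosome gene (x axis, log2 signal, Nedd9-null minus Nedd9-WT). Filled points with lines are the fit to all 8 tumours with its 95% interval, and open diamonds are the fit without Nedd9-null replicate 1; Dsc2 lies at -4.17 and Perp at 2.27 with all tumours, and at -5.80 and 2.69 without that tumour.

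The cadherins were described first, since they form the bond between cells. Dsc2 encodes desmocollin 2, the most widely expressed desmocollin. Its processed signal was 1383.8, 104.9, 5.7 and 15.0 in Nedd9-null replicates 1 to 4, against 1135.4, 1250.6, 625.4 and 1198.8 in Nedd9-WT replicates 1 to 4. Nedd9-null replicate 1 was thus the brightest of all 8 tumours and the other 3 Nedd9-null tumours were the dimmest, of which replicates 3 and 4 were not well above background. On the log2 scale Dsc2 averaged -5.72 ± 3.70 in Nedd9-null tumours, against -1.55 ± 0.45 in Nedd9-WT tumours (SD, n = 4 each), a difference of -4.17 with a 95% interval of -7.95 to -0.38 (SE 1.63, limma adjusted p = 0.178).

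Without Nedd9-null replicate 1 the Dsc2 difference was -5.80 (SE 0.90, limma adjusted p = 0.0053). Its size depends on how the background is treated, since 2 of these 3 arrays gave no level above it. Over the alternatives the difference ran between -5.80 and -2.58, and it was negative in all 19 that could be computed.

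Dsg2 encodes desmoglein 2, the desmoglein of simple epithelia and the heart. Its brighter probe (chr18:20761177-20761236) gave -0.92, -1.89, -1.04 and -2.19 in Nedd9-null replicates 1 to 4 and -2.11, -0.98, -1.19 and -1.0 in Nedd9-WT replicates 1 to 4. The genotypes overlapped, each with at least 1 tumour near -1 and 1 near -2. The difference was -0.19, with a 95% interval of -1.07 to 0.70 (SE 0.38, limma adjusted p = 0.806). A dimmer Dsg2 probe (chr18:20737628-20737687) differed by -0.49 (SE 0.33, limma adjusted p = 0.396), so neither probe passed. The Dsc2 probe (chr18:20189299-20189358) lies on the same chromosome as the Dsg2 probes, and the values of the cadherin pair were unlike each other across the tumours.

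Of the other desmosomal cadherins and the plakophilin relative Pkp4, all 8 genes had a probe and 2 passed the filter on dim probes. These were Pkp4, with a difference of 0.23 (SE 0.21, limma adjusted p = 0.558), and Dsg1c, with 0.42 (SE 1.05, limma adjusted p = 0.847). The remaining cadherin genes (Dsg1a, Dsg1b, Dsg3, Dsg4, Dsc1 and Dsc3), known from skin and other stratified epithelia, were dim.

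The armadillo genes of the plaque gave values in both directions. Jup encodes plakoglobin, which also joins adherens junctions. It was -3.05, -3.88, -3.96 and -4.22 in Nedd9-null replicates 1 to 4, and -3.34, -3.22, -3.08 and -3.22 in Nedd9-WT replicates 1 to 4. Nedd9-null replicate 1 was the highest of all 8, and the other 3 Nedd9-null tumours were below all of Nedd9-WT, whose values lay within 0.26 of each other. The difference was -0.56 (SE 0.26, limma adjusted p = 0.23), with a 95% interval of -1.16 to 0.03. Without Nedd9-null replicate 1 Jup was 1.75-fold lower in Nedd9-null tumours (-0.80, SE 0.16, limma adjusted p = 0.0128).

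Pkp1 encodes plakophilin 1, the plakophilin of the upper layers of stratified epithelia. Its levels were -5.10, -2.78, -3.20 and -4.77 in Nedd9-null replicates 1 to 4 and -7.40, -4.33, -6.27 and -4.46 in Nedd9-WT replicates 1 to 4. Nedd9-null replicates 2 and 3 were above all Nedd9-WT tumours, and the other Nedd9-null tumours were inside the Nedd9-WT range. The difference was 1.65, with a 95% interval of -0.26 to 3.57 (SE 0.83, limma adjusted p = 0.267), and 2.03 without Nedd9-null replicate 1 (SE 0.86, limma adjusted p = 0.155). The probe was dim: it was not well above background on the array of Nedd9-WT replicate 1, and with normexp background correction the difference was 0.92.

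Pkp2 encodes plakophilin 2, found in simple epithelia and the heart. It had 2.60, 2.25, 2.18 and 1.78 in Nedd9-null replicates 1 to 4 against 2.46, 2.61, 1.11 and 2.84 in Nedd9-WT replicates 1 to 4. All 4 Nedd9-null values lay inside the Nedd9-WT range. The difference was -0.05 (SE 0.39, limma adjusted p = 0.953), and its 95% interval of -0.96 to 0.86 leaves room for a change in either direction.

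Pkp3 encodes plakophilin 3, present in most epithelia, and was read by the probe with the CT repeat shown above. Nedd9-null replicates 1 to 4 had 1.45, 1.23, 1.42 and 1.45, and Nedd9-WT replicates 1 to 4 had 1.27, 0.94, 1.41 and 1.46. It varied least of the 10 genes in Nedd9-null tumours (SD 0.11). The difference was 0.12 (SE 0.17, limma adjusted p = 0.705), with a 95% interval of -0.27 to 0.51, the narrowest of the 10.

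The plakins split. Dsp encodes desmoplakin, the plaque protein that desmosomes need to hold filaments. Its main probe gave 2.17, 1.67, 1.49 and 0.20 in Nedd9-null replicates 1 to 4, against 1.03, 2.28, 1.40 and 2.12 in Nedd9-WT replicates 1 to 4. Nedd9-null replicate 4 was the lowest of the 8, and the other Nedd9-null tumours lay inside the Nedd9-WT range. The difference was -0.32 with a 95% interval of -1.41 to 0.76 (SE 0.47, limma adjusted p = 0.714).

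The second Dsp probe, the one interrupted in the genome, had -3.43, -3.92, -4.37 and -5.53 in Nedd9-null replicates 1 to 4 and -4.83, -3.49, -4.66 and -3.96 in Nedd9-WT replicates 1 to 4. As with the main probe, Nedd9-null replicate 4 was the lowest, and here Nedd9-null replicate 1 was the highest, where the main probe had Nedd9-WT replicate 2 highest. The difference was -0.08 (SE 0.49, limma adjusted p = 0.941).

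The main Dsp probe was spotted several times on each array, which gives the spread of repeated spots. After spots marked as outliers were left out, 7 to 10 spots remained per array, and their SD was 1.36% to 2.64% of the mean signal, or 0.0195 to 0.038 on the log2 scale. Between tumours the SD reached 0.84 in the Nedd9-null group and 0.59 in the Nedd9-WT group. Spots on 1 array share its RNA, labelling and hybridisation, so their spread leaves out those sources of error, and how much of the spread between tumours is measurement was not tested.

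**Figure D3:**
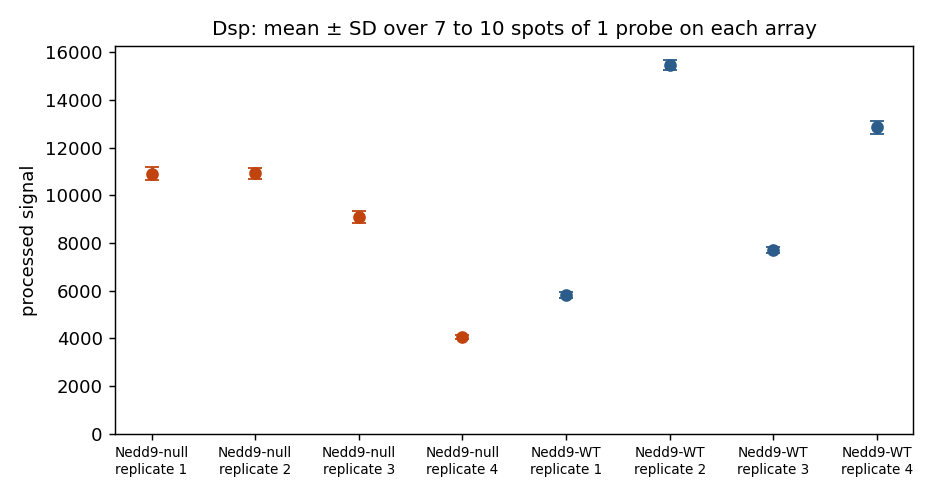
Processed signal of the Dsp probe with 10 spots (y axis, linear) in each tumour, Nedd9-null at left and Nedd9-WT at right. Points are means over the 7 to 10 spots used and bars are SD over spots; the bars are small beside the differences between tumours, from 4070 in Nedd9-null replicate 4 to 15480 in Nedd9-WT replicate 2.

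Ppl encodes periplakin, which binds keratin filaments. Its processed signal was 504.0, 17170.1, 16735.5 and 12430.5 in Nedd9-null replicates 1 to 4 and 1621.7, 4278.6, 6157.1 and 1835.8 in Nedd9-WT replicates 1 to 4. Nedd9-null replicate 1 was the dimmest of all 8 tumours, and the other 3 Nedd9-null tumours were the brightest. On the log2 scale Ppl averaged 1.06 ± 2.23 in Nedd9-null tumours, against 0.00 ± 0.91 in Nedd9-WT tumours (SD, n = 4 each). The difference was 1.06 with a 95% interval of -1.39 to 3.51 (SE 1.06, limma adjusted p = 0.586), and without Nedd9-null replicate 1 it was 2.17, or 4.49-fold higher in Nedd9-null tumours (SE 0.49, limma adjusted p = 0.0232).

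Evpl encodes envoplakin, the partner of periplakin. It had 2.59, 3.19, 3.67 and 3.35 in Nedd9-null replicates 1 to 4, against 1.19, 2.75, 2.12 and 1.69 in Nedd9-WT replicates 1 to 4. The genotypes overlapped through a single pair, as Nedd9-null replicate 1 was below Nedd9-WT replicate 2. The difference was 1.26 with a 95% interval of 0.40 to 2.12, or 2.40-fold (SE 0.37, limma adjusted p = 0.114). It was 1.47, or 2.76-fold, without Nedd9-null replicate 1 (SE 0.37, limma adjusted p = 0.0337).

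Perp was the desmosome gene with the smallest p. Its processed signal was 1102.0, 8426.4, 3900.3 and 3666.3 in Nedd9-null replicates 1 to 4 and 750.6, 712.3, 825.4 and 457.5 in Nedd9-WT replicates 1 to 4. The genotypes did not overlap, which held for 1 of the 10 desmosome genes and for 12.7% of all genes, 7.16% higher and 5.58% lower in Nedd9-null tumours. Relative to the 75th percentile, Perp averaged 0.12 ± 1.00 in Nedd9-null tumours, against -2.15 ± 0.39 in Nedd9-WT tumours (SD, n = 4 each).

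The Perp difference was 2.27, or 4.83-fold, with a 95% interval of 1.15 to 3.39 (SE 0.48, limma adjusted p = 0.0836). The two-sided exact permutation p was again at its lowest possible value, 0.0286. It ranked 489 of 25535 genes by p, and it did not pass the threshold over all genes. Without Nedd9-null replicate 1 it was 2.69, or 6.44-fold (SE 0.36, limma adjusted p = 0.00285). Perp was between 1.88 and 2.70 over all 20 alternatives.

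**Figure D4:**
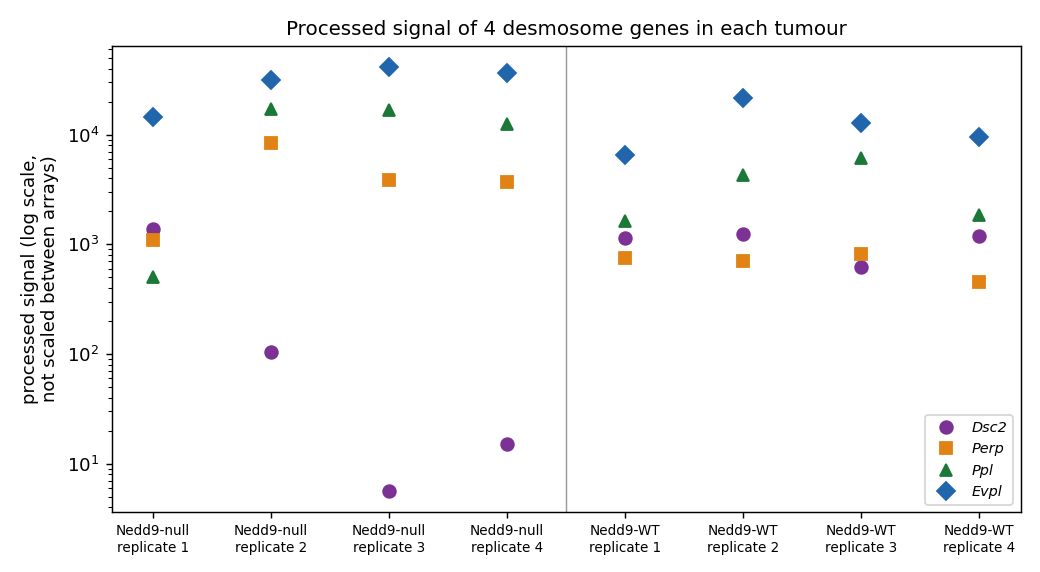
Processed signal (y axis, log scale, before scaling between arrays) of Dsc2, Perp, Ppl and Evpl in the 4 Nedd9-null tumours (left) and the 4 Nedd9-WT tumours (right); levels of different probes cannot be set against each other. Nedd9-null replicate 1 has a Dsc2 signal of 1383.8 and a Ppl signal of 504.0, whereas replicates 2 to 4 have 5.7 to 104.9 for Dsc2 and 12430.5 to 17170.1 for Ppl.

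The genes thus differed in where Nedd9-null replicate 1 fell. It was inside the Nedd9-WT range for 5 of the 10 genes (Dsp, Evpl, Pkp1, Pkp2 and Pkp3), as it was for 52% of all genes. It was above the range for Dsg2, Dsc2, Jup and Perp and below it for Ppl. Relative to the Nedd9-WT mean it was higher by 1.02 for Perp, 0.75 for Dsc2, 0.65 for Evpl and 0.17 for Jup, and lower for Ppl (-2.26).

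Markers of epithelial cells, the cells that build most desmosomes, moved with the genes that were higher. Of 12 epithelium markers, 12 had a positive difference (median 1.71 against 0.03 over all genes), 0 passed the test with all tumours and 8 passed, all higher, without Nedd9-null replicate 1 (10.3% of all genes passed higher there). With all tumours, the tight junction gene Cldn4 differed by 0.67 (SE 0.17, limma adjusted p = 0.0991) and its relative Cldn7 by 1.79 (SE 0.47, limma adjusted p = 0.101). Cldn4 was highest in Nedd9-null replicate 1 (-5.06), and without that tumour it differed by 0.59 (limma adjusted p = 0.0579). The epithelium markers that did not pass without that tumour were Cldn4, Krt18, Epcam and Cdh1. All 12 were well above background on at least 3 of 4 arrays of each genotype. Their mean level was -0.68 to 0.50 in Nedd9-null replicates 2 to 4 and -2.87 in replicate 1, against -2.92 to -1.94 in Nedd9-WT tumours. Perp in Nedd9-null replicate 1 was above all Nedd9-WT tumours, although the mean of the epithelium markers in that tumour was inside the Nedd9-WT range. The part of epithelial cell content in the values of Perp, Ppl and Evpl was not tested.

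By their mean level, markers of several other cell types also separated Nedd9-null replicates 2 to 4 from the rest. All 10 genes of ciliated oviduct cells were positive (median 4.58). Their mean level was 1.51 to 2.19 in Nedd9-null replicates 2 to 4 and -2.16 in replicate 1, against -4.40 to -2.17 in Nedd9-WT tumours. For 6 of the 10, all Nedd9-null tumours, replicate 1 included, were above all Nedd9-WT tumours, against 7.16% of all genes. Dnah5 was the ciliated marker nearest to background, well above it on 3 of 4 Nedd9-null and 1 of 4 Nedd9-WT arrays. The 6 oviduct secretory cell markers had a mean level of 1.66 to 2.26 in Nedd9-null replicates 2 to 4 and -0.94 in replicate 1, against -2.15 to -0.63 in Nedd9-WT tumours. Of 10 granulosa and steroidogenic cell markers, 9 were negative (median -2.72). Their mean level was -5.17 to -2.70 in Nedd9-null replicates 2 to 4 and -0.65 in replicate 1, against -0.60 to 0.78 in Nedd9-WT tumours, and Amh and Fshr were well above background on 1 of 4 Nedd9-null and all 4 Nedd9-WT arrays. The 7 Sertoli cell markers had a mean level of -0.80 to -0.19 in Nedd9-null replicates 2 to 4 and 1.23 in replicate 1, against 0.81 to 1.61 in Nedd9-WT tumours. Without Nedd9-null replicate 1, 9 ciliated, 2 secretory and 1 Sertoli marker passed higher (10.3% of all genes). In the same fit 6 granulosa and steroidogenic and 3 Sertoli markers passed lower (8.36% of all genes). For 5 cardiac and skeletal muscle genes the mean level was -3.65 to -3.16 in Nedd9-null replicates 2 to 4 and -5.07 in replicate 1, against -5.60 to -4.48 in Nedd9-WT tumours. Dsc2 and Jup were lower in the same 3 tumours, and the part of cell content in that was not tested.

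Keratins, the filaments to which desmosomes attach, were read next. Of 8 genes of simple epithelial keratins and other filaments, 5 were positive and 3 negative (median 0.99), 0 passed with all tumours, and 3 passed, all higher, without Nedd9-null replicate 1, against 10.3% of all genes. Krt23 differed by 2.09 (SE 0.79, limma adjusted p = 0.166) and Krt19 by 1.95 (SE 1.04, limma adjusted p = 0.297), while Vim, which encodes the filament protein of mesenchymal cells, differed by -0.85 (SE 0.33, limma adjusted p = 0.173). Among 18 genes of stratified keratins and the cornified envelope, in which envoplakin and periplakin take part, 14 passed the filter on dim probes, with 10 positive and 4 negative (median 0.63) and 0 past the test. Without Nedd9-null replicate 1, 4 of them passed, all higher, against 10.3% of all genes.

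Tgm1, the transglutaminase that crosslinks the cornified envelope, differed by 4.28 (SE 1.26, limma adjusted p = 0.114) and by 5.50 without Nedd9-null replicate 1 (SE 0.77, limma adjusted p = 0.00351). Krt13 differed by 1.30 (SE 0.38, limma adjusted p = 0.112), and Cnfn, the cornifelin gene, by 1.10 (SE 0.33, limma adjusted p = 0.116). The cornified envelope genes Ivl and Sprr1b and the keratin genes Krt1 and Krt6a did not pass the filter on dim probes.

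Regulators of epithelial genes gave values in both directions, with 7 of 11 kept members positive (median 0.89) and 0 past the test. With Nedd9-null replicate 1 left out, 5 of the 11 passed higher and 1 lower, against 10.3% and 8.36% of all genes. Grhl2, a transcription factor that maintains epithelial junctions, differed by 1.70 (SE 0.32, limma adjusted p = 0.0756) and did not overlap between the genotypes; without Nedd9-null replicate 1 it differed by 1.59 (SE 0.34, limma adjusted p = 0.0198). Ehf, an epithelial ETS factor, differed by 4.19 (SE 1.18, limma adjusted p = 0.108), and by 5.48 without that tumour (SE 0.41, limma adjusted p = 0.000409). The splicing factor gene Esrp2 differed by -1.55 (SE 0.48, limma adjusted p = 0.12), and by -1.88 without it (SE 0.43, limma adjusted p = 0.0247). Trp63, whose product p63 regulates Perp in mouse skin, was 2.51, 1.50, 1.25 and 1.01 in Nedd9-null replicates 1 to 4 and 1.84, 1.60, 1.28 and 1.70 in Nedd9-WT replicates 1 to 4. Trp63 overlapped between the genotypes (-0.04, SE 0.33, limma adjusted p = 0.959); it is named for its known link to Perp, after its values were seen.

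Likeness of profiles was measured as the root mean square difference over the 8 arrays, after each gene was centred on its own mean. Among desmosome genes the nearest pair was Dsp and Dsg2, at 0.38 log2 units, followed by Dsg2 and Jup at 0.44. Dsc2 lay farthest from the others, at 2.70 (Jup) to 4.46 (Ppl). The 5 genes nearest to the mean profile of all 10 were Olfr1276 (0.11), Rab43 (0.14), Trip6 (0.15), Trex1 (0.16) and Mindy2 (0.16), with differences between the genotypes of -0.13 to 0.15. That mean profile averages genes with differences in both directions (5 positive, 5 negative), so it does not stand for the single genes.

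The genes nearest to single desmosome genes were looked at after the values were seen. Nearest to Ppl, among tested genes whose symbol is not a clone or model name, was Krt8, the keratin of simple epithelia (0.39 log2 units), and Krt18, the partner of Krt8, was the fifth (0.55). Krt8 had 0.39, 4.83, 4.83 and 3.88 in Nedd9-null replicates 1 to 4 and 2.45, 2.31, 3.45 and 1.95 in Nedd9-WT replicates 1 to 4. As for Ppl, Nedd9-null replicate 1 was the lowest of the 8 and the other 3 Nedd9-null tumours were the highest. The Krt8 difference was 0.94 with all tumours (SE 0.97, limma adjusted p = 0.597) and 1.97 without Nedd9-null replicate 1 (SE 0.41, limma adjusted p = 0.0174). Nearest to Dsc2 were Sytl4 (0.62) and Prss35 (0.62), nearest to Perp were Angpt4 (0.35) and Ang (0.35), nearest to Evpl was Cetn2 (0.27), and nearest to Jup was Sppl2a (0.07).

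Dsp and Nedd9 lie on the same chromosome, their probes 3.12 Mb apart (Nedd9 at chr13:41405822-41405881, mm9). Of the 19 tested genes with a probe between them, 10 had a positive and 9 a negative difference (median 0.02). Of these genes 0 passed the test, against 0.0666% of all genes, and 0 separated the genotypes without overlap, against 12.7%. In the fit without Nedd9-null replicate 1, 2 of them passed higher (10.3% of all genes) and 1 lower (8.36%). Those with the smallest p were Mak, Elovl2 and Smim13. Mak, a kinase gene of cilia and male germ cells, stood well above background in 3 of 4 Nedd9-null and 0 of 4 Nedd9-WT arrays (limma adjusted p = 0.105). The fatty acid elongase gene Elovl2, well above background on 2 of 4 Nedd9-null and all 4 Nedd9-WT arrays, differed by -4.77 (SE 1.87, limma adjusted p = 0.177), and Smim13 by -0.63 (SE 0.25, limma adjusted p = 0.18).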

How the data were processed

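The deposited scanner files hold the intensity of each spot in 1 colour, made with Agilent Feature Extraction 9.5.3 per the submitters' processing notes; per the file headers the processed signal was background-subtracted and was not normalized between arrays. The deposited value table holds log2 values that follow the median signal (r of 0.999 or more per array, every column with a median of 8.24), with the authors' background step unknown, and served as an alternative. Groups come from the sample titles.

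Control spots and spots flagged as outliers were left out, spots of a probe were averaged, and each array's 75th percentile was subtracted from its log2 signals. The 31783 probes that were well above background in 3 or more of the 4 arrays of either genotype were kept, and the kept probe with the highest mean stood for a gene. The 25535 genes were fitted with limma 3.58.1 in R 4.3.3 (two-sided, Benjamini-Hochberg, threshold 0.05; files read with data.table, version 1.17.8); the fit was tested on simulated data. Symbols were updated through RefSeq (GRCm38.p6; 26055 probes by accession, 3195 by symbol, 930 by synonym, 9249 kept as in the files).

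The desmosome genes and the gene lists were chosen with earlier results of these data known. Named genes are the 10 desmosome genes, Nedd9, up to 3 genes per list with the smallest p, the 5 nearest the mean profile and up to 3 between Dsp and Nedd9; others are said to be named later. The values of 1 gene given by this rule are not reported here. Same-numbered tumours do not pair: deviations from group means correlated at -0.23 to -0.04. Alternatives were the scale, background, filters, probe choice, array weights, prior, replicate block and each array left out.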

Additional observations from a re-analysis of the deposited data

Results flagged for a closer look

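Among the 24 groups of 4 tumours formed by 12 probes and 2 genotypes, 3 had a tumour far from the other 3, by a gap test that flags about 1 in 20 groups by chance. Ppl was -2.26 in Nedd9-null replicate 1, against 1.81 to 2.37 in the other Nedd9-null tumours (a gap of 0.879 of the whole range). Dsc2 was -2.23 in Nedd9-WT replicate 3, against -1.35 to -1.30 in the other Nedd9-WT tumours (0.952 of the range). Pkp3 was 1.23 in Nedd9-null replicate 2, against 1.42 to 1.45 in the others (0.869 of the range).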

How the results depend on the processing

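The count of all genes past the threshold, 17 with all tumours, was 7 with genes above background on all 8 arrays, 4 with the median as the scale, 4 with quantile normalization, 11 with a trended and robust prior, 0 with the replicate block and 5984 with array weights. Leaving out 1 array gave 0 to 4773: 4773 when that array was Nedd9-null replicate 1, 42 when it was Nedd9-WT replicate 1, 2 when it was Nedd9-null replicate 4, and 0 for each of the 5 remaining arrays. The count of desmosome genes was 5 with array weights, which gave Nedd9-null replicate 1 the lowest weight (0.227), and 0 to 5 with 1 array left out, with 5 only without Nedd9-null replicate 1 and the same 5 genes in both. It was 0 in the other 18 alternatives. The median of the desmosome genes stayed between -0.16 and 0.16; the median of all genes was 0.03, and -0.16 with the median scale and -0.07 with quantile normalization.

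Directions turned for genes near 0. With 1 array left out, Dsp ran over -0.59 to 0.07, Dsg2 over -0.45 to 0.04 and Pkp2 over -0.44 to 0.14. Dsp was 0.07 and Dsg2 was 0.04 without Nedd9-null replicate 4, Pkp3 was -0.07 with the median scale, and Pkp2 was 0.01 with quantile normalization and 0.02, 0.07, 0.14 and 0.09 without Nedd9-WT replicates 1, 2 and 4 and Nedd9-null replicate 4. Dsc2, Jup, Perp, Ppl, Evpl and Pkp1 kept their direction in all alternatives that gave a value; Dsc2 and Pkp1 gave none with genes above background on all 8 arrays. Nedd9 differed by -4.51 with the replicate block (limma adjusted p = 0.217) and by -4.92 to -4.25 with 1 array left out (limma adjusted p up to 0.123). The replicate block changed no call of a desmosome gene. A slide block was not possible because each slide holds 1 genotype. The cause of these changes was not tested.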

Other observations

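Hemidesmosome genes, which anchor epithelial cells to the basement membrane, had 6 of 9 members positive and 3 negative (median 0.19), with 0 past the threshold. Lama3, a laminin chain gene, differed by 1.63 (SE 0.47, limma adjusted p = 0.11). For Lama3 the genotypes did not overlap, but Nedd9-null replicate 1 and Nedd9-WT replicate 3 were both -2.95 after rounding. Nedd9-null replicates 2 to 4 had -1.54, -0.59 and -1.07. Col17a1, which encodes a transmembrane collagen, stood well above background in 2 of 4 Nedd9-null and all 4 Nedd9-WT arrays. It differed by -3.78 (SE 1.29, limma adjusted p = 0.139), and the laminin chain gene Lamb3 by -3.09 (SE 1.10, limma adjusted p = 0.15). Without Nedd9-null replicate 1, 3 hemidesmosome genes passed higher (10.3% of all genes) and 1 lower (8.36%), among them Lama3 (2.10, limma adjusted p = 0.00196). Col17a1 also passed there (limma adjusted p = 0.00112), with a difference whose size rests on arrays mostly at background.

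Adherens junction genes had 6 of 14 members positive and 8 negative (median -0.33), with 0 past the threshold. The fit without Nedd9-null replicate 1 called 1 of them higher (10.3% of all genes) and 6 lower (8.36%). Ctnnd2, the delta-catenin gene, differed by 2.44 (SE 0.47, limma adjusted p = 0.0759), Cdh2, the N-cadherin gene, by -2.54 (SE 0.61, limma adjusted p = 0.0923) and Nectin2 by -2.26 (SE 0.58, limma adjusted p = 0.0963); for Ctnnd2 (higher) and Cdh2 (lower) the genotypes did not overlap. Ctnna2, an alpha-catenin gene named after its values were seen, differed by -6.26 with all tumours (limma adjusted p = 0.124). Without Nedd9-null replicate 1 it differed by -8.30 (SE 0.94, limma adjusted p = 0.00159). Its values did not overlap either, but Nedd9-null replicate 1, at 3.79, was only just below the Nedd9-WT range of 3.84 to 4.09. Nedd9-null replicates 2 to 4 had -1.74, -5.62 and -5.75. Non-overlap held for 12.7% of all genes, 7.16% higher and 5.58% lower. Among the 6 transcription factor genes known to repress epithelial junction genes, Snai1 differed by -0.98 (SE 0.29, limma adjusted p = 0.113), Zeb2 by -2.67 (SE 0.80, limma adjusted p = 0.115) and Twist1 by 4.45 (SE 1.44, limma adjusted p = 0.129), with 3 positive and 3 negative in all. Once Nedd9-null replicate 1 was left out, 2 of the 6 passed higher (10.3% of all genes) and 1 lower (8.36%). Zeb2 was then at -3.52 (SE 0.34, limma adjusted p = 0.000845) and Twist1 at 6.05 (SE 0.37, limma adjusted p = 0.000296).

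Desmosomes also join heart muscle cells, and 5 of 6 cardiac and skeletal muscle genes passed the filter on dim probes, 4 of them positive. Tnnt2 differed by 3.06 (SE 0.75, limma adjusted p = 0.0933) and Actc1 by -2.14 (SE 0.74, limma adjusted p = 0.143). Myh2 was well above background on all 4 Nedd9-null and 0 of 4 Nedd9-WT arrays (limma adjusted p = 0.0756). The genotypes did not overlap for 3 of the 5 kept genes, with Myh2 and Tnnt2 higher and Actc1 lower. Such non-overlap held for 12.7% of all genes, 7.16% higher and 5.58% lower. Without Nedd9-null replicate 1, 3 of the 5 passed, all higher (10.3% of all genes).

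Other marker lists had 0 genes past the threshold with all tumours. Their median differences were 2.53 for 6 oviduct secretory cell genes, 0.14 for 9 mesothelium and ovarian surface genes, -1.32 for 7 Sertoli cell genes, 0.03 for 8 leukocyte genes, -0.74 for 8 endothelium genes, -0.42 for 8 fibroblast genes and 0.11 for 6 smooth muscle genes.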
